A study of Mus musculus with 6 samples.

Results

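The proteasome genes described here were every gene named alone by a probe set whose symbol is Psm followed by a letter from a to g and a number, with the immunoproteasome genes Psmb8, Psmb9 and Psmb10 left out. The rule took 46 of 18193 genes and 99 of 34945 probe sets. It covers 8 genes of the alpha ring, 8 of the beta ring, 6 of the ATPase ring, 11 non-ATPase genes of the regulatory particle, 4 activators and inhibitors, 7 assembly chaperones and 2 genes, Psmc3ip and Psme3ip1, that are named after a proteasome protein they bind and are not subunits. Psma8 and Psmb11, which replace a standard subunit in testis and in the thymic cortex, also fit the rule. Without these 4 genes 42 remained. The probe set of the activator gene Psme2 also names Psme2b and was therefore not used.

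Haematopoietic stem cells (HSC), isolated by a sort of marrow for the phenotype CD150+ CD48- KSL, were measured on 1-colour Affymetrix arrays, 3 from Lig4mut mice and 3 from their wild-type (WT, Lig4+/+) littermates. The mice were 6 to 8 weeks old and came from crosses between Lig4mut/+ carriers. Lig4 encodes DNA ligase IV, which joins broken DNA ends; the nature of the mutation is not given in the labels. The labels call the replicates biological and do not say whether each is a single mouse or a pool.

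The proteasome is the machine that degrades proteins marked with ubiquitin. Its barrel-shaped core has outer rings of alpha subunits, which gate the entrance, and inner rings of beta subunits, some of which cut the substrate. The regulatory particle that caps the core recognises ubiquitin, removes it, and unfolds the substrate with a ring of ATPases. When proteasome activity is short, the transcription factor encoded by Nfe2l1 raises many subunit genes together, and HSC are known for low protein synthesis and a strong dependence on protein quality control.

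The factors Nfe2l1 and Nfe2l2 bind the antioxidant response element, whose core was searched as TGACNNNGC on both strands in RefSeq promoters of GRCm38.p6, taken from 250 bases before to 50 bases after each start. Of the 46 genes, 38 had a promoter in the table, and 6 of these (15.8%) held the core, against 14.0% of all 27025 genes with a promoter there. The 6 were Psmb5, Psmb6, Psmc6, Psmd9, Psmd12 and Psme4. The box CCAAT, which binds NF-Y, was found for 15 of 38 (39.5%), against 41.1% of all genes. Both shares lay near those of all promoters, and a match of letters is no evidence of binding. The 80 bases before the start used for the promoter of Psmb5 (chr14:54617996-54618075, minus strand) and of Psmb6 (chr11:70525277-70525356, plus strand) are shown. Both genes encode cutting subunits and both windows hold the core, printed in capitals. For Psmb6 the start used lies downstream of the first base of the annotated gene (chr11:70525324), so its core lies inside the annotated gene.
Psmb5: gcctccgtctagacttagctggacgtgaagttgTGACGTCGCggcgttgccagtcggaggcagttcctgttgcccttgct
Psmb6: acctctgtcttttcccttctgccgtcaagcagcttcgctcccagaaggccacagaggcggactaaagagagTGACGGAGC

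Values are log2 expression values, quantile normalized across the 6 arrays, and a gene is represented by its brightest probe set unless stated otherwise. Deposited array medians were 6.29 to 6.34 in WT and 5.97 to 6.05 in Lig4mut, and 5.59% to 6.54% of probe sets per array lay at the lowest value, 3. Arrays are listed in the order of replicates 1 to 3 throughout. Lig4, the check of the labels, was at 7.53, 6.66 and 7.63 for WT and at 4.97, 3.16 and 3.10 for Lig4mut (limma, adjusted p = 0.13). As a check of the sort, 8 measured of 10 HSC markers averaged 10.30 to 10.57 per WT array and 9.19 to 10.17 per Lig4mut array, and Cd48, which the sort selects against, was at 5.04 to 7.31 in WT and 5.24 to 5.95 in Lig4mut. Granulocyte genes (10 of 10 measured) averaged 7.80 to 8.68 in WT and 6.27, 10.79 and 6.98 in Lig4mut, where the array of replicate 2 stood apart. Endothelial markers (5 of 5) averaged 7.69 to 9.57 and 9.29 to 10.56, B cell markers (7 of 8) 6.51 to 6.65 and 6.87 to 7.65, and macrophage and dendritic cell markers (8 of 8) 6.36 to 6.89 and 7.34 to 7.70. T and NK cell markers (5 of 6) averaged 5.36 to 6.11 and 5.77 to 7.25, erythroid markers (5 of 8) 5.53 to 6.09 and 5.61 to 5.98, and megakaryocyte markers (4 of 4) 8.03 to 8.43 and 8.25 to 8.69. No marker of these lists was at the lowest value on all 6 arrays, and the part that other cells have in the proteasome values was not tested. In sorted cells of this kind, less RNA per cell and fewer cells of a type cannot be told apart.

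Proteasome genes gave some of the brightest signals of the arrays, and none differed between the genotypes past the threshold. The members lay at a median of the 86.8th percentile of mean level over all genes, and 37 of the 46 were above the 75th. With adjustment over all genes no member passed (limma, adjusted p under 0.05, smallest 0.15), where 0.011% of all genes did. At an unadjusted p under 0.05 by limma, 4 members were higher in Lig4mut and 0 lower, against 15.5% and 4.18% of all genes. The 4 are 8.70% of the members, a smaller share than among all genes, and this order turned with the scaling between arrays. The share with a higher value at that p was 8.70% of the members and 6.71% of all genes in the values as deposited, and 10.9% and 8.67% with cyclic loess. With arrays centred on their medians it was 15.2% and 18.4%. These counts were small enough for single arrays to change them: 2 were higher without WT replicate 2 or WT replicate 3, and 3 and 1 were lower without Lig4mut replicates 1 and 3. The genotypes did not overlap for 4 of the 46, all higher, against 26.7% of all genes, 21% higher and 5.65% lower. Among the 42 genes without Psma8, Psmb11, Psmc3ip and Psme3ip1 they did not overlap for 2 (Psma7 and Psmc2), a share of 4.76%. The same 2 were the only ones of the 42 at an unadjusted p under 0.05 by limma. The shares under the other scalings were counted over all 46. Of the members, 27 had higher and 19 lower values in Lig4mut. Their median difference was 0.12 (Lig4mut minus WT, log2), beside a median of 0.18 over all genes, of which 61.4% had higher values. Among genes of like level the order was the other way. Above the 75th percentile of level the median was 0.11 over the 37 members and -0.12 over all genes. There the genotypes did not overlap for 5.41% of the members and 15.4% of all genes. An unadjusted p under 0.05 by limma was reached there by 5.41% of the members and 10.6% of all genes.

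The median absolute difference was 0.34 over the members and 0.44 over all genes. It was at most 0.5 for 33 of the 46 members, a limit under which the median of all genes also lay. The absolute difference was above 1, a 2-fold change, for 1 member (Psmc3ip), against 13.4% of all genes. For 13 members the 95% confidence interval of the difference lay wholly within a 2-fold change in either direction, a share of 28.3%, against 29.8% of all genes. For the other 33 the 3 arrays per genotype do not exclude a 2-fold change. The median over the members shifted with the scaling between arrays. It was 0.12 in the values as deposited, 0.22 with cyclic loess and 0.44 with arrays centred on their medians, where the medians over all genes were 0.02, 0.09 and 0.33. Relative to all genes it was thus -0.06 with quantile normalization and 0.11, 0.12 and 0.11 with the other scalings, so its sign against the rest of the array turned with this choice. Members with a difference above 0 numbered 27, 31 and 37 in these other scalings.

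**Figure D1:**
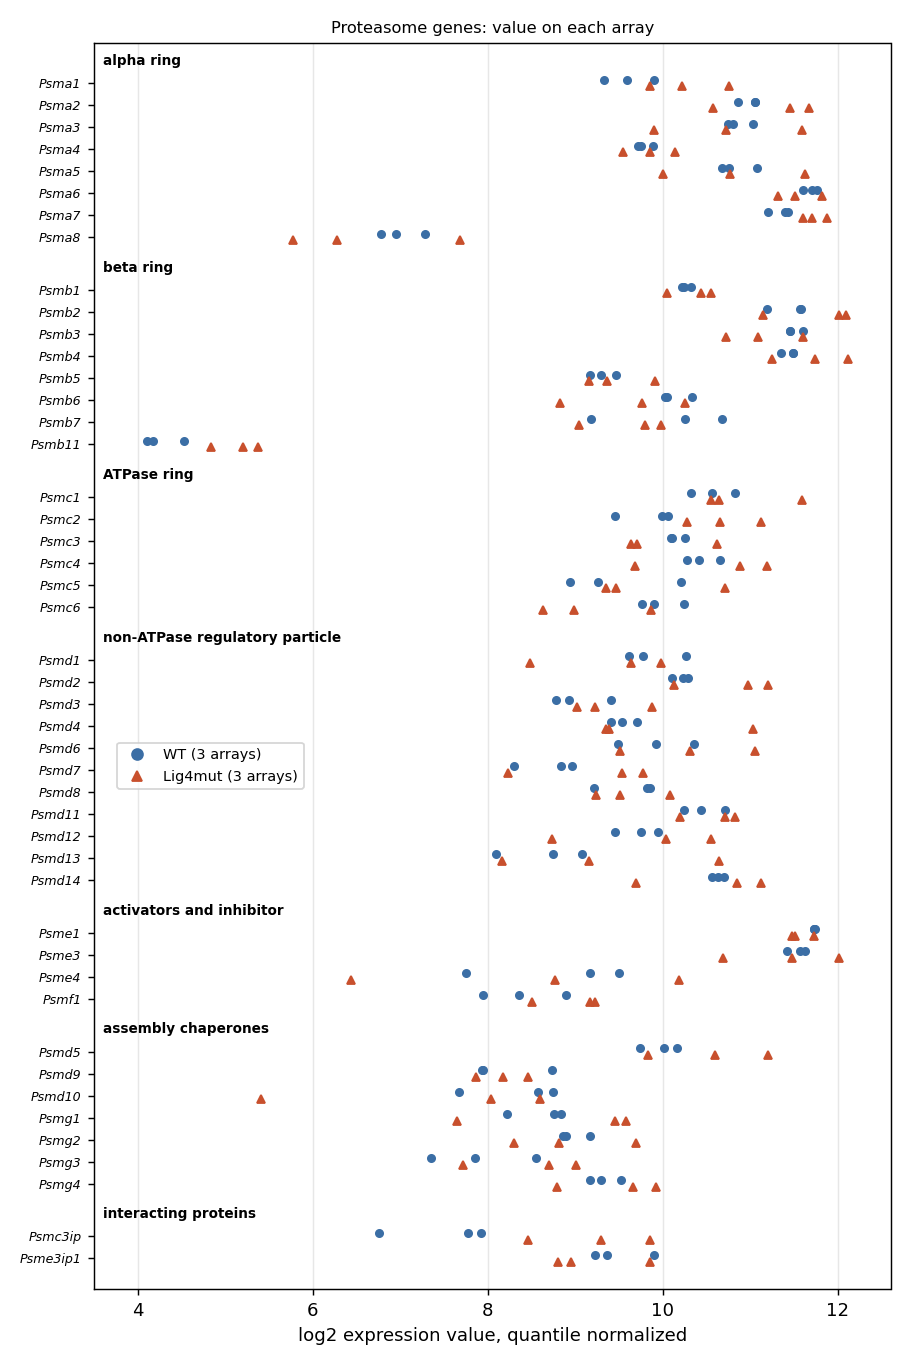
Value of each proteasome gene on each array (log2, horizontal axis), with WT arrays as blue circles and Lig4mut arrays as orange triangles, grouped by the place of the subunit in the particle. The genotypes separate for 4 genes, Psma7, Psmb11, Psmc2 and Psmc3ip, and the orange points spread more widely than the blue ones for most genes.

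Averaged over the 42 standard subunits, regulators and chaperones, the arrays stood at 10.00, 10.01 and 9.84 for WT and at 10.23, 9.96 and 9.94 for Lig4mut. The highest array was Lig4mut replicate 1, and the other two Lig4mut arrays lay within the WT range.

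None of the 3 genes of the standard cutting subunits passed the threshold, and the genotypes overlapped for each. Psmb5 encodes the chymotrypsin-like subunit, the main target of proteasome inhibitors used as drugs. It was at 9.17, 9.29 and 9.46 in WT and at 9.36, 9.15 and 9.91 in Lig4mut, a difference of 0.17 ± 0.24 (SE, n = 3 per genotype) with a 95% interval of -0.43 to 0.77 (limma, adjusted p = 0.74). The genotypes overlapped, and the interval lies within a 2-fold change. Psmb6, of the caspase-like subunit, was at 10.34, 10.05 and 10.03 in WT and at 10.25, 8.82 and 9.77 in Lig4mut, a difference of -0.52 ± 0.39 (limma, adjusted p = 0.512). Its Lig4mut replicate 2 was the lowest array, and replicate 1 lay among the WT arrays. Psmb7, of the trypsin-like subunit, was at 9.18, 10.25 and 10.68 in WT and at 9.97, 9.04 and 9.80 in Lig4mut, a difference of -0.43 ± 0.48 (limma, adjusted p = 0.659). Here the WT arrays themselves were 1.50 apart from lowest to highest.

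The other beta genes encode structural members of the inner rings. Psmb1, Psmb2, Psmb3 and Psmb4 had differences between -0.36 and 0.30 in their brightest probe sets, where the genotypes overlapped. Psmb4 was at 11.49, 11.48 and 11.35 in WT and 11.24, 11.74 and 12.12 in Lig4mut (0.26 ± 0.25), while Psmb3 was at 11.45, 11.45 and 11.60 in WT and 11.09, 10.73 and 11.60 in Lig4mut (-0.36 ± 0.25). In both cases the Lig4mut arrays bracketed or reached the WT values. The other probe set of Psmb4 was nearly as bright, at 11.09, 11.41 and 11.22 in WT and 10.72, 10.60 and 11.02 in Lig4mut, where the genotypes did not overlap (-0.46 ± 0.17; limma over all probe sets, unadjusted p = 0.0418, adjusted p = 0.266). That of Psmb3 differed by 0.46, so for both genes the signs of the probe sets were opposite. Psmb1 had 0.08 ± 0.17 in its brightest probe set, while its other 2 probe sets had 1.42 and 0.69 with every Lig4mut array above every WT array. The mean over the 3 probe sets of Psmb1 differed by 0.73 (limma, unadjusted p = 0.00442), short of the threshold after adjustment, where the smallest adjusted p of any member was 0.117. Psmb1 was picked after its values were seen.

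Psmb11, the subunit of the thymic cortex, had the smallest p among the members. It was at 4.18, 4.53 and 4.10 in WT and at 5.37, 5.20 and 4.84 in Lig4mut, and every Lig4mut array lay above every WT array. The difference was 0.87 ± 0.21 (limma, adjusted p = 0.15; unadjusted p = 0.0085), with an interval of 0.33 to 1.40, and it was 0.62 in the values as deposited. The gene lay at the 17.7th percentile of level. With genes under the 40th percentile of level left out, the median difference over all genes was 0.03, against 0.18 with them. What the dim range adds to the difference of Psmb11 was not tested.

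**Figure D2:**
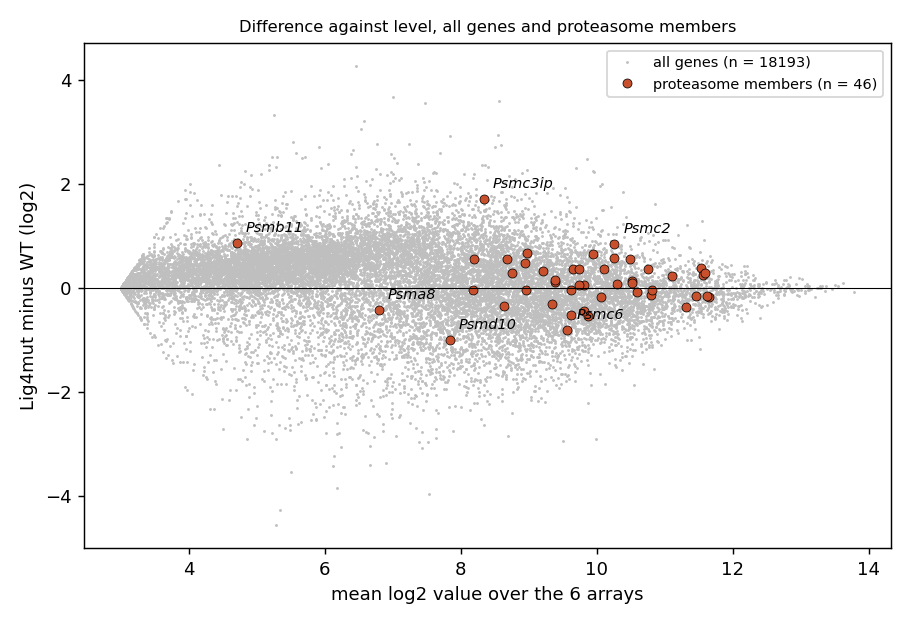
Difference between genotypes (Lig4mut minus WT, log2, vertical axis) against the mean log2 value over the 6 arrays, for 18193 genes in grey and the 46 members in orange. Most members sit on the bright side between 8 and 12 and close to 0, and Psmb11 lies apart among dim genes.

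In the alpha ring, which gates the core, 4 of 8 genes had higher and 4 lower values, with a median difference of 0.01. Psma7 was at 11.20, 11.39 and 11.43 in WT and at 11.60, 11.88 and 11.71 in Lig4mut. All 3 Lig4mut arrays were above the WT arrays, by a narrow margin, since the nearest arrays of the genotypes were at 11.43 and 11.60. The difference was 0.39 ± 0.14, 1.31-fold (limma, adjusted p = 0.237; unadjusted p = 0.0424), and the second probe set of the gene had 0.31.

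Psma1 was at 9.59, 9.90 and 9.33 in WT and at 9.85, 10.22 and 10.75 in Lig4mut, a difference of 0.67 ± 0.29 (limma, adjusted p = 0.295). The lowest Lig4mut array lay below the highest WT array, and the 3 dimmer probe sets of this gene had differences of -0.64 to -0.13. The one with -0.64 was at the lowest value, 3, on all 3 Lig4mut arrays. Psma6 was steady in its brightest probe set, at 11.76, 11.70 and 11.60 in WT and 11.82, 11.31 and 11.51 in Lig4mut (-0.14 ± 0.17). All 4 of its probe sets had lower values in Lig4mut, down to -0.54, and 2 of them did not overlap between genotypes. A further 1 was at the lowest value on all 3 Lig4mut arrays, so its difference could not lie above 0. With arrays centred on their medians the sign for the brightest one turned (0.21).

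Psma8, the testis form of Psma7, was at 6.95, 6.78 and 7.28 in WT and at 7.69, 6.28 and 5.78 in Lig4mut. The Lig4mut arrays lay on both sides of WT, and the difference was -0.42 ± 0.53 (limma, adjusted p = 0.703). The remaining alpha genes, Psma2, Psma3, Psma4 and Psma5, had differences between -0.13 and 0.25.

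The ATPase ring pulls substrates into the core. It held the standard subunits with the largest differences in both directions. Psmc2 was at 10.06, 9.99 and 9.45 in WT and at 10.65, 10.28 and 11.12 in Lig4mut, and the genotypes did not overlap. The difference was 0.85 ± 0.29, 1.80-fold, with an interval of 0.11 to 1.59 (limma, adjusted p = 0.211; unadjusted p = 0.0313). Its second bright probe set, at 9.86, 9.47 and 8.41 in WT and 10.34, 9.24 and 8.16 in Lig4mut, showed no such difference (0.00 ± 0.69), so the separation was seen with the brighter of these 2 alone, and the dimmest probe set had 0.39.

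Psmc6, in contrast, was at 10.24, 9.90 and 9.76 in WT and at 9.87, 8.63 and 8.99 in Lig4mut. Replicates 2 and 3 lay below all WT arrays and replicate 1 within the WT range. The difference was -0.81 ± 0.36, with an interval of -1.72 to 0.11 (limma, adjusted p = 0.302), and its other 2 probe sets had -0.16 and -1.38. Psmc1 and Psmc5 had differences of 0.36 ± 0.34 and 0.37 ± 0.52, and Psmc3 and Psmc4 of -0.16 and 0.14. The ring as a whole had 4 genes with higher and 2 with lower values.

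**Figure D3:**
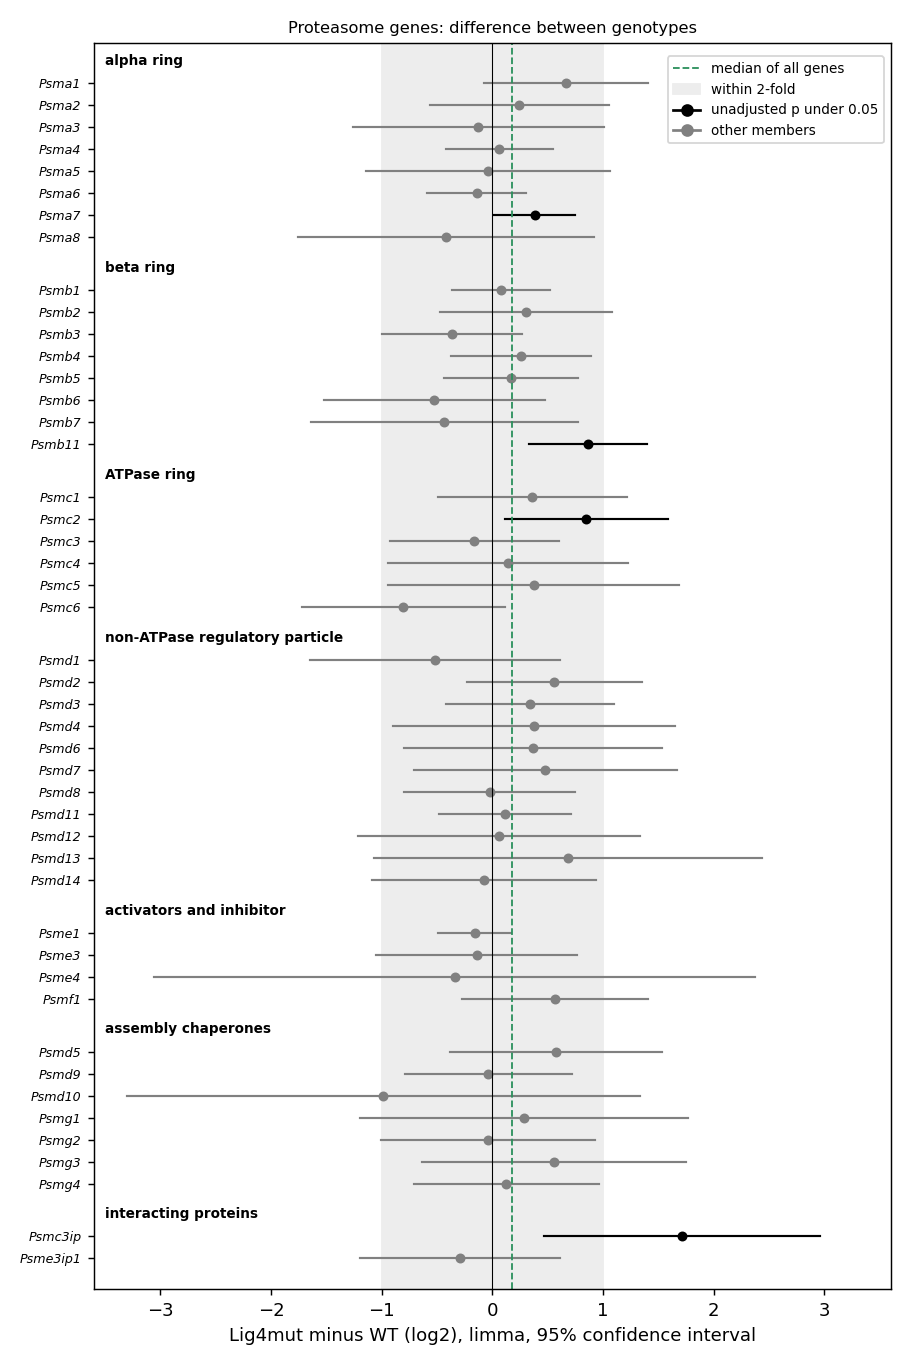
Difference between genotypes of each member (Lig4mut minus WT, log2), with 95% confidence intervals from limma and n = 3 arrays per genotype. Grey shading marks differences within 2-fold, the dashed line the median of all genes (0.18), and black points the 4 members at an unadjusted p under 0.05.

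Among the 11 non-ATPase genes of the regulatory particle, 8 had higher and 3 lower values, and none reached an unadjusted p of 0.05 or separated the genotypes. Their median difference was 0.34. Psmd2 encodes the large scaffold on which shuttles with ubiquitin-like domains dock. It was at 10.10, 10.23 and 10.29 in WT and at 10.97, 11.20 and 10.12 in Lig4mut (0.56 ± 0.31; limma, adjusted p = 0.386). Replicates 1 and 2 were above WT and replicate 3 was level with it. Psmd1, the other large scaffold, was at 10.26, 9.77 and 9.62 in WT and at 9.63, 9.98 and 8.48 in Lig4mut (-0.52 ± 0.45), where replicate 3 alone was below all WT arrays.

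Psmd3, a structural subunit of the lid, was at 9.40, 8.78 and 8.92 in WT and at 9.87, 9.02 and 9.23 in Lig4mut (0.34 ± 0.30). Psmd7, the inactive partner of the deubiquitinase, was at 8.84, 8.96 and 8.30 in WT and at 9.77, 8.23 and 9.54 in Lig4mut (0.48 ± 0.47), and all 3 of its probe sets had higher values, up to 1.34. Psmd14 encodes the deubiquitinase of the lid, which removes ubiquitin chains before degradation. It was at 10.70, 10.56 and 10.63 in WT and 9.70, 10.84 and 11.12 in Lig4mut (-0.07 ± 0.40), so 1 Lig4mut array lay below and 2 above tightly grouped WT arrays. The ubiquitin receptor gene Psmd4 likewise had 1 array apart, at 9.41, 9.53 and 9.71 in WT and 9.39, 11.03 and 9.35 in Lig4mut (0.37 ± 0.50). These 2 genes were picked after their values were seen.

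None of the 4 regulators of the core particle passed the threshold, and their genotypes overlapped in the brightest probe sets. Psme1, a subunit of the interferon-inducible activator cap, was at 11.73, 11.74 and 11.72 in WT and at 11.73, 11.47 and 11.51 in Lig4mut (-0.16 ± 0.13), with an interval of -0.49 to 0.17, the narrowest among the members. Psme3, of the nuclear activator, was at 11.41, 11.62 and 11.56 in WT and 10.69, 11.48 and 12.01 in Lig4mut (-0.14 ± 0.36). Its Lig4mut arrays reached both above and below WT. Psme4, of a further nuclear activator, had the widest interval of all members, -3.06 to 2.38, with 9.16, 9.50 and 7.75 in WT and 10.19, 6.44 and 8.77 in Lig4mut.

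Psmf1 encodes a protein found as an inhibitor of the core particle, and its probe sets disagreed most. The brightest was at 8.35, 8.89 and 7.95 in WT and at 9.17, 8.50 and 9.23 in Lig4mut (0.57 ± 0.33; limma, adjusted p = 0.407). The next was at 8.08, 9.16 and 7.76 in WT and at 8.27, 3.58 and 3.20 in Lig4mut, where replicates 2 and 3 were close to the lowest value of the arrays and replicate 1 was like WT (-3.31 ± 1.51; limma over all probe sets, unadjusted p = 0.0788). The other 2 probe sets had -1.93 and -0.74, and the mean over all 4 was -1.35. Which transcripts these probe sets read was not analysed here.

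Of the 7 assembly chaperones, which guide the rings together and leave the finished particle, 4 had higher and 3 lower values, and the genotypes overlapped for all. Psmd5, a chaperone of the ATPase ring, was at 10.16, 10.01 and 9.74 in WT and at 9.83, 11.20 and 10.60 in Lig4mut (0.57 ± 0.38). Psmd10, known as gankyrin, was at 8.74, 8.57 and 7.68 in WT and at 8.03, 8.59 and 5.40 in Lig4mut (-0.98 ± 0.91), and without Lig4mut replicate 3 the difference was -0.01. Psmg1 and Psmg3, of the chaperones of the alpha ring, had 0.29 ± 0.58 and 0.55 ± 0.47, and Psmg2, Psmg4 and Psmd9 had -0.04, 0.13 and -0.04. Dimmer probe sets differed more: those of Psmg2 had -1.02 and -0.62, and those of Psmd9 had opposite signs, 0.68 and -0.90. The probe set of Psmd9 with -0.90 was at the lowest value, 3, on 2 Lig4mut arrays. The mean over the probe sets of Psmg3 was 0.67.

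The largest difference of all 46 genes belonged to a gene that is no subunit. Psmc3ip encodes a partner of the recombinases that pair DNA strands in meiosis, and was found through its binding to the ATPase Psmc3. It was at 7.77, 7.92 and 6.76 in WT and at 9.85, 9.29 and 8.45 in Lig4mut, and all Lig4mut arrays lay above all WT arrays. The difference was 1.72 ± 0.49, 3.28-fold, with an interval of 0.47 to 2.96 (limma, adjusted p = 0.173; unadjusted p = 0.0161). Its second probe set had 1.00 ± 0.55 with overlapping genotypes. Psme3ip1, which binds the nuclear activator, had -0.29 ± 0.36.

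Replicate arrays of Lig4mut lay further apart than those of WT for nearly every member, a comparison made after the values were seen. The median SD between arrays was 0.23 in WT and 0.58 in Lig4mut, and it was larger in Lig4mut for 43 of 46 members (93.5%). The exceptions were Psmb7, Psmd9 and Psmf1. Over all genes the median SDs were 0.28 and 0.45, and 69.9% had the larger SD in Lig4mut. Among all genes above the 75th percentile of level the share was 78.7%, and among the members there it was 36 of 37.

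**Figure D4:**
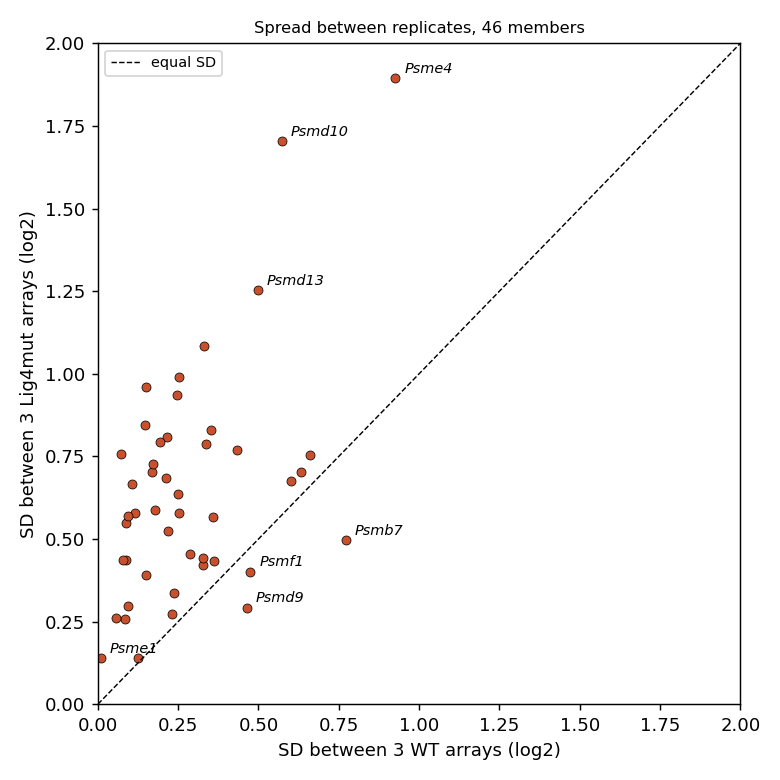
Standard deviation between the 3 WT arrays (horizontal axis) and between the 3 Lig4mut arrays (vertical axis) for each of the 46 members, in log2 units. The dashed line marks equal spread, and 43 points lie above it.

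The Lig4mut arrays did not deviate in a common direction. For 22 members (47.8%) they reached both above the highest and below the lowest WT array, against 23.8% of all genes. Above the 75th percentile of level it was so for 36.6% of all genes and 19 of 37 members. A Lig4mut array was the highest of the 6 for 37 members (80.4%), against 69.8% of all genes. These 37 were shared out as 14, 12 and 11 over replicates 1, 2 and 3. As shares of the 46 these are 30.4%, 26.1% and 23.9%, where the shares of all genes were 20.1%, 25.9% and 23.8%. A Lig4mut array was the lowest for 31 members (67.4%), against 44.7% of all genes. The 31 were shared out as 5, 16 and 10, or 10.9%, 34.8% and 21.7% of the 46, where the shares of all genes were 13.4%, 16.3% and 15%. Replicate 2, the array with high granulocyte genes, was the lowest for the most members. Without replicate 2 the SD was larger in Lig4mut for 37 of 46 members, against 56.7% of all genes. It was so for 36 members without replicate 1 and 33 without replicate 3, against 58.3% and 58.9% of all genes. These comparisons set the SD of 2 Lig4mut arrays against that of 3 WT arrays, so the counts are not directly comparable with those over all 6. What the unequal number of arrays adds was not tested.

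Probe sets of the same gene bear on how far a single value can be read. Of the 46 members 20 had 1 probe set and 26 had several. Of the 26, 10 had all probe sets higher in Lig4mut, 4 had all lower and 10 had probe sets in both directions. The other 2 (Psmc1 and Psmc2) held a probe set with no difference. That of Psmc1 was at the lowest value, 3, on all arrays of both genotypes, so it could not show a difference. Among the member probe sets 9 were at the lowest value on at least 1 array, and the counts of directions include them. Over all 99 member probe sets, none passed the threshold (limma, smallest adjusted p = 0.129, where 0.00286% of all probe sets passed). At an unadjusted p under 0.05, 9 were higher and 4 lower, against 12.2% and 5.3% of all probe sets. The 4 smallest p values belonged to probe sets that were not the brightest of their gene. A probe set of Psmd11, a scaffold subunit of the lid, was at 6.56, 6.67 and 6.86 in WT and at 7.62, 8.37 and 8.03 in Lig4mut (1.31 ± 0.23), while the brightest of its 8 probe sets had 0.11 ± 0.23. Another of them, at 6.83 in WT and 7.80 in Lig4mut on average, had 0.96 ± 0.21 without overlap of the genotypes. Of the 8, 7 had higher values and 1 lower, and their mean differed by 0.46. Of the 99 probe sets, 10 differed by more than 1 in absolute size, against 15.2% of all, and 83 had the larger SD in Lig4mut, against 68.2% of all. A dim probe set of Psme3, at 4.33 in WT and 5.30 in Lig4mut on average, had 0.97 ± 0.17, against -0.14 in the brightest one. The second probe set of Psmb1, at 7.65 and 8.35 on average, had 0.69 ± 0.15. These probe sets were picked for their small p.

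**Figure D5:**
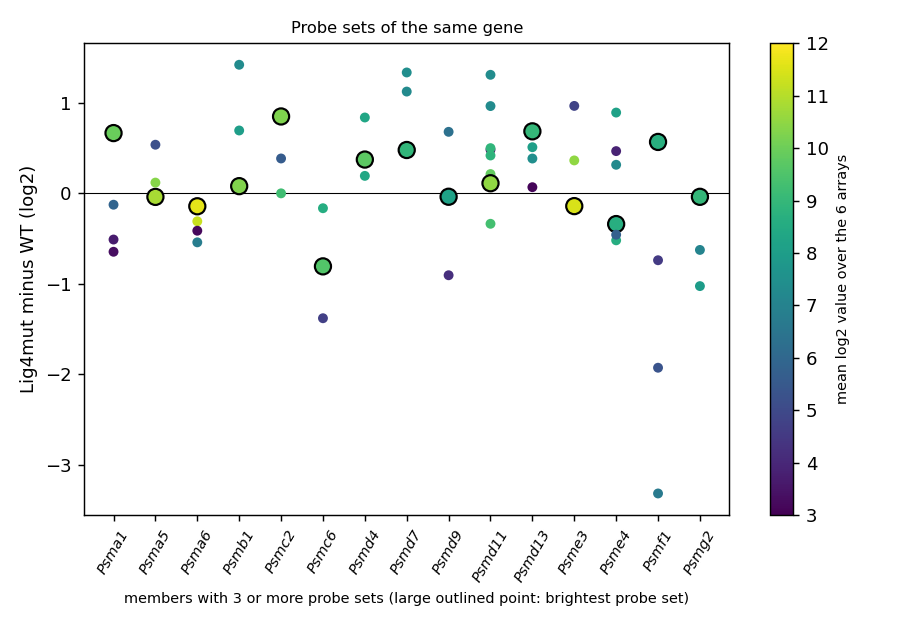
Difference between genotypes (Lig4mut minus WT, log2) of each probe set of the members with 3 or more probe sets, coloured by the mean log2 value over the 6 arrays. The brightest probe set of a gene is the large outlined point, and Psmf1 shows the widest range, from -3.31 to 0.57.

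The genes around the particle were described in the same fit, and none of the 33 measured genes of 42 listed passed the threshold (limma, smallest adjusted p = 0.179). The genotypes overlapped for each of the 3 immunoproteasome genes, whose products replace the cutting subunits in immune cells. Psmb9 was at 11.34, 11.43 and 11.31 in WT and 11.37, 11.26 and 11.92 in Lig4mut (0.15 ± 0.21). Psmb10 differed by 0.19 ± 0.24 and Psmb8 by 0.04 ± 0.63, with 11.09, 11.86 and 9.46 in its Lig4mut arrays, on both sides of the WT range of 10.62 to 10.88. The 95% interval of Psmb8, -1.56 to 1.65, does not exclude a 2-fold change in either direction.

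Of 8 measured genes that control proteasome genes, 4 had higher and 4 lower values and none reached an unadjusted p of 0.05 by limma. Nfe2l1 itself was at 8.30, 8.41 and 8.40 in WT and 8.00, 8.81 and 8.73 in Lig4mut (0.14 ± 0.25), a gene picked for its role after its value was seen. Nfe2l2 had 0.53 ± 0.29, and the partner genes Mafg and Mafk had 0.60 ± 0.44 and -0.50 ± 0.42. As means of their probe sets Nfe2l2 and Mafg were at -0.07 and -0.04.

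Among 8 further partners of the particle 3 had higher and 5 lower values. Usp14, a deubiquitinase that docks on the regulatory particle, was at 9.33, 9.32 and 9.59 in WT and at 10.52, 9.57 and 10.66 in Lig4mut (0.84 ± 0.33; limma, adjusted p = 0.253), and 2 of its 4 probe sets went the other way. Sem1, the smallest subunit of the lid, was tightly grouped at 11.79, 11.76 and 11.80 in WT and 11.52, 11.47 and 11.58 in Lig4mut (-0.26 ± 0.11; limma, adjusted p = 0.294). Its genotypes did not overlap, and with arrays centred on their medians the difference was 0.09. Txnl1 had -0.33 ± 0.18.

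The shuttles and the unfoldase p97, which hand ubiquitin-marked proteins to the proteasome, had 10 of 13 measured genes with lower values and a median difference of -0.40, beside 0.18 over all genes and -0.12 over those above the 75th percentile of level. Of these 13, limma gave 2 an unadjusted p under 0.05, both lower (4.18% of all genes were). Ube4b, which lengthens ubiquitin chains, was at 9.61, 10.22 and 10.23 in WT and at 8.15, 8.81 and 9.36 in Lig4mut (-1.25 ± 0.37, 2.38-fold; limma, adjusted p = 0.179). All its Lig4mut arrays were below WT and all 3 of its probe sets had lower values. Zfand5, an activator that binds ubiquitin and the particle, was at 12.30, 12.35 and 12.51 in WT and at 12.07, 11.99 and 11.91 in Lig4mut (-0.40 ± 0.13; limma, adjusted p = 0.2), and Rad23b had -0.44 ± 0.27. With arrays centred on their medians the difference of Zfand5 was -0.07. Of the 7 probe sets of Zfand5, 5 had lower and 2 higher values, up to 0.80, and their mean differed by -0.16. The count of 10 rests on the brightest probe sets. As means of their probe sets Rad23b, Ubqln1 and Zfand2a turned higher (0.33, 0.15 and 0.29) and Ufd1 turned lower (-0.33). In the list of ubiquitin genes and activating enzymes 1 of 6 was measured alone by a probe set, Uba6, at 9.66, 10.05 and 9.19 in WT and 8.87, 9.19 and 8.73 in Lig4mut (-0.70 ± 0.27; limma, adjusted p = 0.246).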

How the data were processed

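The authors deposited 1 log2 value per probe set and array, and the only tool that the submitters' processing notes list is RMA, without a version. No value lies below 3, which every array reaches; no label or note explains this floor. Genes were assigned from GEO's annotation of the platform with symbols brought up to date from the NCBI gene table of GRCm38.p6, keeping probe sets with a single gene. Because the distributions differed between arrays, the values were quantile normalized across the 6 arrays, and each of 18193 genes was represented by its probe set with the highest mean. The comparison was fitted with limma 3.58.1 (lmFit and eBayes, two-sided, R 4.3.3), adjusted by Benjamini-Hochberg over all genes with a threshold of 0.05, and repeated over all 34945 probe sets. An exact permutation test of 3 arrays against 3 cannot give a p below 0.1 and was not run. The fit was tested on simulated data with the same SD in both genotypes. That setting differs from the members here, so the check says nothing about unequal spread. P-values measure the spread between these arrays, whose number sets the precision.

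The members and gene lists were chosen with earlier results of these data known. Named are the genes of the cutting subunits, Lig4, up to 4 members per subcomplex and up to 3 genes per surrounding list with the smallest p. The text says where others were picked after their values were seen. Lists are described by counts and medians. A probe set counts as having no difference within 0.005. No pairing of the arrays by replicate number was seen (correlations of deviations for equal numbers of 0.04, 0.01 and -0.03). With 3 arrays per genotype this cannot exclude a pairing.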

Additional observations from a re-analysis of the deposited data

How the results depend on the processing

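No member passed the threshold over all genes, or over all probe sets, under the alternatives tried (limma). Counts of members at an unadjusted p under 0.05 were 2 higher and 1 lower with the replicate block, 7 higher with arrays centred on their medians, 2 higher with dim genes left out, 5 higher and 1 lower with probe sets averaged per gene, and 9 higher and 4 lower over the 99 probe sets, of which 83 had the larger SD in Lig4mut. Leaving out single arrays gave 2 to 6 higher and 0 to 3 lower. The members' median difference was 0.44 with arrays centred on their medians, and relative to all genes 0.11 there, 0.11 in the values as deposited and 0.12 with cyclic loess.

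Of 28 named members 11 changed sign under an alternative, and none passed the threshold under any. With arrays centred on their medians Psme1 was at 0.19, Psme3 at 0.20, Psma6 at 0.21, Sem1 at 0.091 and Txnl1 at 0.028. With probe sets averaged per gene Psmf1 was at -1.35, Psme3 at 0.40, Psme4 at 0.060, Psma1 at -0.15, Psmb3 at 0.050, Psmb4 at -0.10, Nfe2l2 at -0.074, Mafg at -0.036, Usp14 at -0.013 and Rad23b at 0.33, and with array weights Psmb8 was at -0.033. Leaving out single arrays turned the sign of 7 genes. Their ranges were -0.047 to 0.33 for Psmb5, -0.45 to 0.21 for Psme3, -1.19 to 0.67 for Psme4, -0.057 to 0.91 for Psmg1, -0.062 to 0.75 for Psmc5, -0.046 to 0.29 for Psmb9 and -0.48 to 0.71 for Psmb8. The cause was not tested. For 33 of the 46 members the interval from 3 arrays per genotype does not exclude a 2-fold change.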
